A study of Rattus norvegicus with 5 samples.

Results

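Cones whose RNA was dominated by the short-wavelength opsin (S-opsin cones) were picked out of droplet single-cell RNA libraries of rat retina. A barcode was taken when it had at least 200 genes, at most 40% mitochondrial transcripts, at least 4 unique molecular identifiers (UMIs, each a counted RNA molecule) of the cone genes Arr3, Gnat2, Pde6h and Pde6c together, at least 2 UMIs of the short-wavelength opsin gene Opn1sw, and more Opn1sw than Opn1mw, the gene of the middle-wavelength opsin. This gave 131 cells of 44236 barcodes, or of 924 barcodes that met the gene, mitochondrial and cone-gene limits. The same rule with the opsins exchanged gave 375 M-opsin cones, and 418 barcodes had too few UMIs of either opsin or equal numbers (cones of neither opsin). The cells were thus chosen by the measured UMIs of 6 genes, which are described and not tested.

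The retinas came from SD rats, and the series addresses early diabetic change. Control rats (0 weeks) received citrate phosphate buffer, and diabetic rats received a single dose of streptozotocin (STZ), a toxin of pancreatic beta cells, at 45 mg/kg and then a diet high in fat and sugar for 2, 4 or 8 weeks. Each of the 4 libraries used holds 1 retinal specimen, namely 1 control and 1 per diabetic time, and the other control specimen was not analysed here. Time, diet, age, animal and preparation therefore cannot be told apart, and no test between times was possible.

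Cones are the photoreceptors of daylight and colour vision. An opsin is activated by light, the cone transducin (with its alpha subunit Gnat2 and gamma subunit Gngt2) then drives the cone phosphodiesterase (Pde6c with the inhibitory subunit Pde6h), and cyclic nucleotide-gated channels close. Arr3, the cone arrestin, quenches the activated opsin. In the rodent retina many cones carry both opsins in differing proportion, and in mice the thyroid hormone receptor gene Thrb is needed for the middle-wavelength opsin and restrains the short-wavelength one.

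The sequences just upstream of the transcription starts of the opsin genes, and of Ccdc136, the gene that differed most between the cone types (below), are given because they mark the loci on which the results turn. They are RefSeq sequences of the rat build GRCr8, which is not the build of the count files, 250 bases each, written 5′ to 3′ in the direction of the gene: Opn1sw at chr4:58945826-58946075 on the minus strand, Opn1mw at chrX:157056105-157056354 on the plus strand, and Ccdc136 at chr4:58962946-58963195 on the plus strand. Capitals mark TAATCC, a motif bound by the photoreceptor homeobox factor Crx.
Opn1sw: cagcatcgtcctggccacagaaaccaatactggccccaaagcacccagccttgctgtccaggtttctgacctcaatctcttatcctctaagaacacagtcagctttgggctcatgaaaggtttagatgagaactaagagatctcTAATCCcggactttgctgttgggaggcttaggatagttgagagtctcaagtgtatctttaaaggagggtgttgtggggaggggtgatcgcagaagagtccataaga
Opn1mw: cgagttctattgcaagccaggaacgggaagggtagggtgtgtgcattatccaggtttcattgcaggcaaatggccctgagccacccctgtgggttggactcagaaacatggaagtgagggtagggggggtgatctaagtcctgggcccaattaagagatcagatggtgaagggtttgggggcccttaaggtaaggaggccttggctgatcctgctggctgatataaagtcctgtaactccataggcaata
Ccdc136: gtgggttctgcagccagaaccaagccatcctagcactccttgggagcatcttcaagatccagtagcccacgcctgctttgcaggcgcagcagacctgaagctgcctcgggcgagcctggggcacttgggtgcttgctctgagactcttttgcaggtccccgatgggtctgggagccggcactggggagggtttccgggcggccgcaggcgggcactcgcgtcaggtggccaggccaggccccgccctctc
TAATCC was searched on both strands (reverse complement GGATTA), and so was AGGTCA, a core motif of nuclear receptors (reverse complement TGACCT). The Opn1sw window held TAATCC once, from 106 to 101 bases before the start, and TGACCT once, from 184 to 179 bases before it, without overlap. Neither motif's letters stood in the other windows. Across 33469 promoter windows of the same length, 6.34% held TAATCC and 14.1% held AGGTCA on either strand. In the GRCr8 annotation Opn1sw and Ccdc136 lie next to each other on chromosome 4 on opposite strands, without overlap. No protein-coding gene and 1 transfer RNA gene are annotated between them.

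The S-opsin cones were well covered. Their median depth was 3350 UMIs per cell in control, 3418.5 at 2 weeks, 3815 at 4 weeks and 3656.5 at 8 weeks, and the libraries held 20151789 to 34177860 UMIs in all. The lowest cone-gene sum among them was 9 UMIs. Of 10 cone markers, 6 are the genes of the rule, so that their detection was favoured or fixed by the choice of cells. Gngt2, Gnb3 and Cngb3, which the rule does not read, were detected in the S-opsin cones of every library. Cnga3, a subunit of the cone channel, was detected at 8 weeks only. A few members lay near the limits: 2 had exactly 2 Opn1sw UMIs and 7 had 3, while 6 cone barcodes with 1 Opn1sw UMI and no Opn1mw, and 7 with equal opsin counts, lay just outside. There were 25 members with more than 20% mitochondrial UMIs, 20 of them in the 8-week library, and 2 otherwise fitting barcodes exceeded 40%. Pairs of libraries shared 13 to 70 barcode sequences, and none was an S-opsin cone in both.

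S-opsin cones made up a smaller part of the opsin-assigned cones in the control library than in any diabetic one (description, since opsin counts chose the cells). There were 12 of 125 in control (9.60%, exact binomial 95% interval 5.06 to 16.2), 40 of 164 at 2 weeks (24.4%, 18.0 to 31.7), 11 of 52 at 4 weeks (21.2%, 11.1 to 34.7) and 68 of 165 at 8 weeks (41.2%, 33.6 to 49.1). The control and 4-week intervals overlapped, here and under each alternative given below but thinning. These intervals cover the counting error of cells within 1 specimen and make no test between times. Of all barcodes within the gene and mitochondrial limits, S-opsin cones were 0.133% in control, 0.258% at 2 weeks, 0.111% at 4 weeks and 1.01% at 8 weeks.

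**Figure D1:**
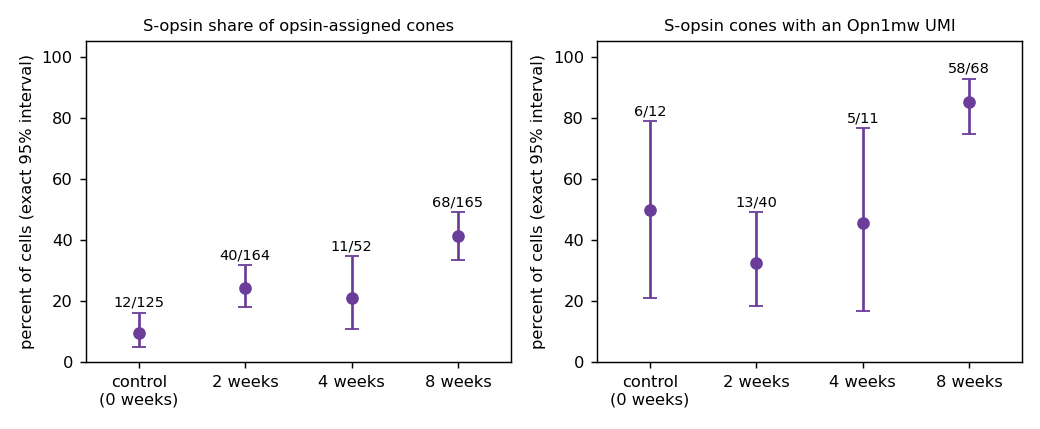
Left, S-opsin cones as a percentage of opsin-assigned cones; right, S-opsin cones with at least 1 Opn1mw UMI as a percentage of S-opsin cones; points are libraries, bars are exact 95% binomial intervals and fractions are cell counts. The control library has the lowest share on the left (9.60%) and the 8-week library the highest on both sides (41.2% and 85.3%).

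The control library had the lowest share under each other choice tried, and the 8-week library did not always have the highest. Without doublets, the shares were 10.5% in control (5.35 to 18.0), 17.4% at 2 weeks (11.4 to 24.99), 18.2% at 4 weeks and 40.8% at 8 weeks, so that the control and 2-week intervals overlapped, as they did with at most 20% mitochondrial UMIs and with the denominator given next. With cones of neither opsin in the denominator (barcodes with at least 10 cone-gene UMIs, chosen after the data were seen), the shares were 7.55% in control, 14.6% at 2 weeks, 12.4% at 4 weeks and 34.7% at 8 weeks. Where the leading opsin had to reach 4 UMIs and 4 times the other, they were 12.5, 46.2, 40.0 and 39.4% in that order. Thinned to 1000 UMIs per cell, they were 17.9, 51.5, 62.5 and 54.5%. After thinning 46 control M-opsin cones met the rule, against 113 before it, and their median Opn1mw count before thinning was 4 UMIs.

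The S-opsin cones were not uniform in their opsins, and the 8-week library stood apart. Opn1sw counts had medians of 50 UMIs in control (range 5 to 123), 28 at 2 weeks (3 to 144), 28 at 4 weeks (5 to 106) and 13 at 8 weeks (2 to 127). Summed and scaled to the UMIs of the S-opsin cones, Opn1sw stood at 13346, 12135 and 11818 CPM (counts scaled to equal totals) in control, at 2 and at 4 weeks, and at 5920 CPM at 8 weeks. Opn1mw was highest at 8 weeks, at 393 CPM in control, 143 at 2 weeks, 213 at 4 weeks and 705 at 8 weeks. The M-opsin cones of those libraries had 1127, 1042, 705 and 1118 CPM of Opn1mw.

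**Figure D2:**
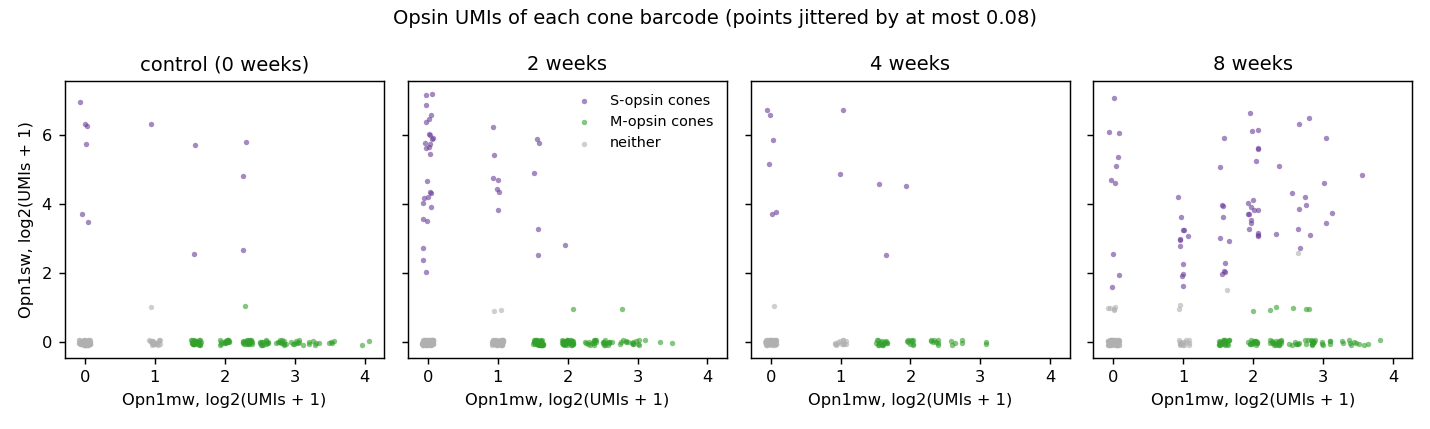
Opn1mw (horizontal) against Opn1sw (vertical) UMIs of each barcode that met the cone-gene limit in the 4 libraries, both as log2(UMIs + 1). Purple points are S-opsin cones, green M-opsin cones and grey cones of neither opsin, many of which held little cone RNA. At 8 weeks 58 of 68 S-opsin cones lie right of the zero line of Opn1mw, against 6 of 12 in control, while M-opsin cones lie at or near 0 for Opn1sw in every library.

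Some S-opsin cones also held Opn1mw. The rule sets the room for a second opsin: M-opsin cones had medians of 3 to 4 Opn1mw UMIs and had to hold fewer of Opn1sw, whereas S-opsin cones had medians of 13 to 50 Opn1sw UMIs, so the shares of the cone types are not compared. At least 1 Opn1mw UMI was found in 6 of 12 S-opsin cones in control (50.0%, exact interval 21.1 to 78.9), 13 of 40 at 2 weeks (32.5%, 18.6 to 49.1), 5 of 11 at 4 weeks (45.5%, 16.7 to 76.6) and 58 of 68 at 8 weeks (85.3%, 74.6 to 92.7). An Opn1sw UMI was found in 1 of 113 M-opsin cones in control, 2 of 124 at 2 weeks, 0 of 41 at 4 weeks and 6 of 97 at 8 weeks, and no M-opsin cone had 2. For background, Opn1mw was found in 0.0468 to 0.226% of rods, whose median depth was 946 to 1247 UMIs, and in at most 0.130% of non-photoreceptor cells, whose median depth was 3555.5 to 4461 UMIs. For Opn1sw these shares were 0.0468 to 0.902% of rods and 0.194 to 0.693% of non-photoreceptor cells, with the highest values in the 8-week library. These background cells had been picked to hold 0 UMIs of Arr3, Gnat2, Pde6h and Pde6c, so that their cone RNA was low by selection and these shares may understate the background.

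Within the S-opsin cones, those without any Opn1mw UMI were set beside those with at least 1. This split was made after seeing the opsins and is a description. The cones without Opn1mw were shallower per cell in each library, with 16631, 87120, 20194 and 27810 UMIs in 6, 27, 6 and 10 cells. Those with it had 26679, 52722, 22029 and 238724 UMIs in 6, 13, 5 and 58 cells (control, 2, 4 and 8 weeks). The split thus also sorts cells by depth, whose part was not tested. Opn1sw itself was 21346, 15048, 15747 and 14240 CPM in cones without Opn1mw in control and at 2, 4 and 8 weeks, against 8359, 7321, 8216 and 4951 CPM in cones with it. Arr3 ran opposite to Opn1sw. It had 1022, 769, 941 and 1510 CPM in the cones without Opn1mw and 3111, 1555, 1316 and 3024 CPM in the cones with it. Crym, a cytosolic thyroid hormone-binding protein, had 120, 91.8, 0 and 71.9 CPM in the cones without Opn1mw (2, 8, 0 and 2 UMIs). It had 899.6, 209, 90.8 and 666 CPM in those with Opn1mw (24, 11, 2 and 159 UMIs). Gnat2 kept no direction, at 7636, 6807, 5645 and 5358 CPM without Opn1mw and 8396, 5956, 5357 and 6091 CPM with it.

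The other genes of the rule were also unequal between S-opsin and M-opsin cones. Arr3 was lower in the S-opsin cones of every library, by log2 ratios of -0.54 in control (exact conditional interval -0.85 to -0.25), -1.26 at 2 weeks (-1.52 to -1.02), -0.61 at 4 weeks (-1.09 to -0.18) and -0.27 at 8 weeks (-0.40 to -0.14). Pde6h ran from a log2 ratio of -0.92 at 2 weeks to 0.22 in control, and Gnat2 from -0.17 at 2 weeks to 0.37 in control, so neither kept 1 direction. No test was made, because a cone with few UMIs of these genes had to pass the same sum.

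The comparison of S-opsin with M-opsin cones asked which other genes go with the opsin that a cone carries. UMIs were summed per library and cone type, and edgeR's quasi-likelihood test with library as a block was run on 5982 genes. At a Benjamini-Hochberg adjusted p below 0.05, 3 genes were higher in S-opsin cones (0.0502% of those tested) and 14 lower (0.234%); 286 genes had an unadjusted p below 0.05. The p-values rest on 4 libraries of 1 specimen each and on variance estimates that edgeR shares across genes. They therefore do not measure a single gene's own spread between libraries. Each SE given below was derived from the fold change and the test statistic of the same fit.

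**Figure D3:**
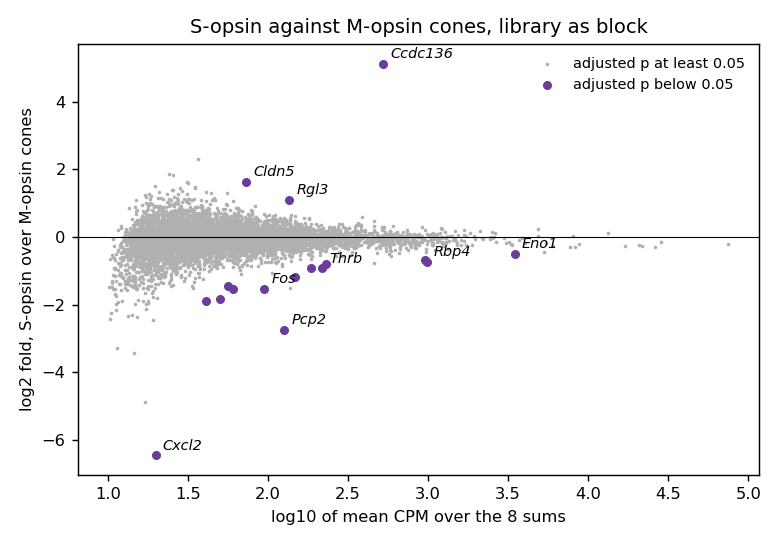
Each point is 1 of 5982 genes, with the log10 of its mean CPM over the 8 sums (horizontal) and its log2 fold change of S-opsin over M-opsin cones (vertical); purple points have an adjusted p below 0.05 in edgeR. Ccdc136, at 5.13, lies far above the other genes, and most genes lie near 0.

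Ccdc136, a coiled-coil gene with a described role in mouse sperm, was found in most S-opsin cones and few M-opsin cones. S-opsin cones had 947 CPM in control, 908 at 2 weeks, 1516 at 4 weeks and 728 at 8 weeks (41, 127, 64 and 194 UMIs), against 21.5, 11.8, 0 and 53.8 CPM in M-opsin cones (10, 5, 0 and 22 UMIs). The ranges did not overlap: the lowest S-opsin value was 13.5-fold above the M-opsin value of its own library at 8 weeks. At 4 weeks the ratio was 96.0-fold with 3 counts put for 0 in the M-opsin sum, which leaves out counting error. The log2 fold change was 5.13 ± 0.23 (SE, n = 4 libraries), with an adjusted p of 4.3e-42 in edgeR. Over the alternatives the adjusted p ran from 2.0e-141 without cells rich in other markers to 0.0935. The adjusted p was 0.0935 when genes needed at least 100 UMIs and 0.033 without the library block, while the log2 fold change lay between 4.82 and 6.32 under the alternatives run.

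At least 1 Ccdc136 UMI was found in 112 of 131 S-opsin cones (85.5%, median depth 3542 UMIs) and in 14 of 375 M-opsin cones (3.73%, median depth 3551 UMIs). For background, rods had it in 1.46% (median depth 992 UMIs). Non-photoreceptor cells, which include bipolar cells, had it in 24.9% (median depth 3965.5 UMIs), so the gene is not particular to cones. Of the 37 Ccdc136 UMIs in M-opsin cones, 23 lay in the 36 cells that also held at least 8 UMIs of a marker list of bipolar, Müller, amacrine, microglial or endothelial cells. Among 207 cones of neither opsin with at least 10 cone-gene UMIs, 16 had a Ccdc136 UMI (7.73%, median depth 2690 UMIs). Leaving out the 17 of them that were rich in such markers, 9 of 190 had one.

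Ccdc136 also differed within the S-opsin cones. Cones without Opn1mw had 1563, 1033, 1733 and 1654 CPM of it in control and at 2, 4 and 8 weeks, and cones with Opn1mw had 562, 702, 1316 and 620 CPM. Both sets lay above the M-opsin cones of each library.

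**Figure D4:**
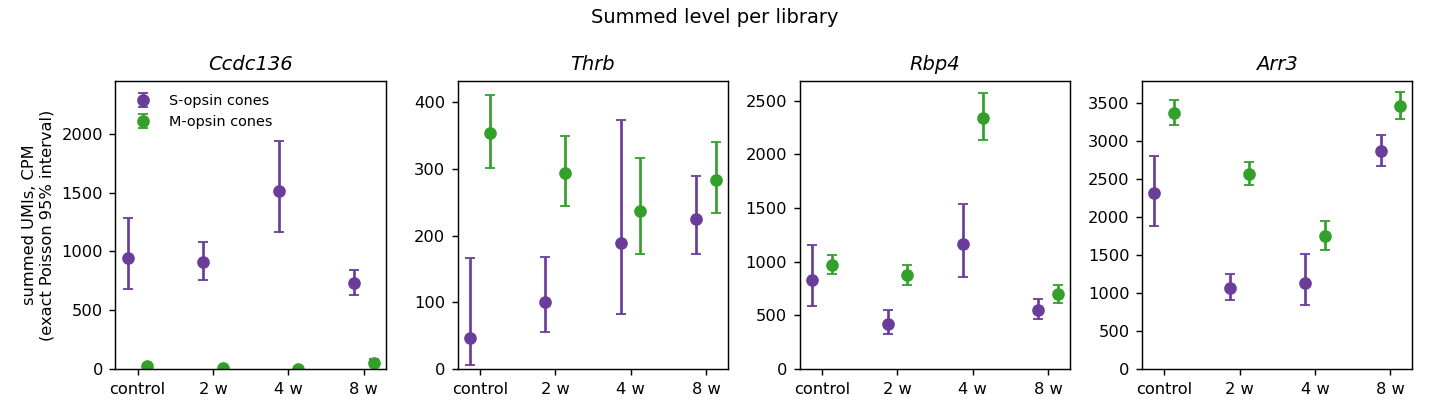
CPM of Ccdc136, Thrb, Rbp4 and Arr3 in the summed S-opsin cones (purple, left of each pair) and M-opsin cones (green) of each library, with exact Poisson 95% intervals for counting error. Ccdc136 is above its M-opsin value in S-opsin cones of all 4 libraries, Thrb and Rbp4 are lower in S-opsin cones of all 4 libraries, and Arr3, a gene of the rule, is shown as a description.

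Thrb had the opposite pattern. It stood at 46.2 CPM in control S-opsin cones, 100 at 2 weeks, 189 at 4 weeks and 225 at 8 weeks (2, 14, 8 and 60 UMIs), against 353, 294, 237 and 284 CPM in M-opsin cones. The S-opsin value was the lower in all 4 libraries, with a gap that was widest in control. The log2 fold change was -0.93 ± 0.21 (SE, n = 4 libraries), with an adjusted p of 0.0074 in edgeR. The call was lost with an adjusted p of 0.45 without the control library, 0.91 without the 2-week library, 0.13 with genes of at least 100 UMIs, 0.89 without the library block and 1.00 in DESeq2. Thrb UMIs were found in 46 of 131 S-opsin cones (35.1%) and 223 of 375 M-opsin cones (59.5%).

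The list of opsin type genes, chosen with earlier results of these data known, holds Ccdc136 and Thrb. A role of Ccdc136 in opsin choice was not tested. The other genes of the list gave no further call. Of 11 genes of the list in the files, 5 could be tested. Besides Ccdc136 and Thrb these were Rxrg, Rorb and Nr2f2. Rxrg, a partner of the thyroid hormone receptor, had a log2 fold change of 0.11 ± 0.22. Rorb, a nuclear receptor acting on the Opn1sw promoter in mice, had 0.02 ± 0.28. Nr2f2, a nuclear receptor of dorsoventral patterning in mice, had 1.25 ± 0.65. Over 15 tested transcription factors of cones the median log2 fold change was 0.05, against -0.04 over all genes, and 1 passed (Thrb). The remaining 17 tested genes of the cone phototransduction cascade had a median of 0.00, and none passed. Among them were Gngt2 (0.04 ± 0.13), Gnb3, the cone transducin beta subunit (0.11 ± 0.13), Guca1a, a calcium sensor of guanylate cyclase (-0.44 ± 0.13, adjusted p 0.18 in edgeR), and Cngb3, a subunit of the cone channel (0.42 ± 0.17, adjusted p 0.82).

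Of the other 2 genes called higher, Rgl3, an activator of Ral GTPases, had 185, 143, 308 and 124 CPM in S-opsin cones of control, 2, 4 and 8 weeks, against 62.5, 80.5, 126 and 51.4 CPM in M-opsin cones. Its S-opsin value was the higher in all 4 libraries (log2 fold change 1.11 ± 0.26, adjusted p 0.0097 in edgeR), and the call was lost without doublets, with at most 20% mitochondrial UMIs, without the 2-week or the 8-week library, without a count filter, without the block and in DESeq2. Cldn5, an endothelial tight junction gene, came almost wholly from the 2-week library, with 62 UMIs in S-opsin cones and 59 in M-opsin cones there, and 0 in S-opsin cones and 1 in M-opsin cones of the other libraries. The whole endothelial list (Cldn5, Flt1, Cdh5 and Vwf) had 76 UMIs in S-opsin cones at 2 weeks and 0 in the other libraries, and 2 of 131 S-opsin cones held at least 8 of them. With doublets removed the Cldn5 fold change was -5.63.

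Nxnl2, a thioredoxin-like gene whose product supports photoreceptors, was higher in S-opsin cones of all 4 libraries without passing (277, 636, 592 and 413 CPM, against 129, 308, 342 and 401 CPM in M-opsin cones; log2 fold change 0.58 ± 0.17, adjusted p 0.19 in edgeR). Dnal1, a dynein light chain, also had the higher value in all 4 (1.84 ± 0.59, adjusted p 0.32 in edgeR), but on few counts. It had 1, 6, 2 and 12 UMIs in S-opsin cones and 9, 4, 1 and 4 UMIs in M-opsin cones. The next by p were Pltp, a phospholipid transfer protein (1.31 ± 0.42), Sst, somatostatin (0.48 ± 0.16), and Id1, an inhibitor of transcription factors (1.62 ± 0.54). None of these last 3 was higher in every library.

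Among the 14 genes lower in S-opsin cones, Rbp4, the plasma retinol carrier, and Eno1, an enolase of glycolysis, were abundant. Rbp4 had 831, 422, 1160 and 552 CPM in S-opsin cones of control, 2, 4 and 8 weeks, against 972, 871, 2342 and 695 CPM in M-opsin cones (log2 fold change -0.73 ± 0.14, adjusted p 0.00037 in edgeR). It was lower in all 4 libraries, with the call lost without the 2-week library (adjusted p 0.16), without the block and in DESeq2. Among S-opsin cones without Opn1mw, Rbp4 had 1 UMI in 6 control cells and 1 UMI in 10 cells at 8 weeks, but 29 and 28 UMIs at 2 and 4 weeks. Eno1 had a log2 fold change of -0.49 ± 0.13 (adjusted p 0.042) and Tuba1b, a tubulin, -0.69 ± 0.14 (adjusted p 0.00096); both lost the call without the control or the 2-week library, without the block and in DESeq2, and Eno1 also without the 8-week library, without doublets and with genes of at least 100 UMIs. Of 20 glycolysis genes tested, Eno1 alone passed, and their median was -0.12.

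Immediate early genes, which are transcribed within minutes of a stimulus, lay mostly below 0. Of 12 tested, 3 passed, all lower: Fos (-1.53 ± 0.31, adjusted p 0.00096 in edgeR), Egr1 (-1.18 ± 0.28, adjusted p 0.014) and Jun (-0.92 ± 0.23, adjusted p 0.0285). Of all genes tested, 0.234% were called lower. The list's median log2 fold change was -0.87, against -0.04 over all genes, and 10 of 12 lay below 0, beside 3306 of 5982 of all genes. Summed over the list, the S-opsin cones had 369, 1459, 663 and 510 CPM in control and at 2, 4 and 8 weeks, against 631, 3259, 810 and 518 CPM in M-opsin cones. The sum was highest at 2 weeks in both cone types. Each of the 3 calls was lost without the 2-week library, under strict opsin dominance, without cells rich in markers of other types, without the block and in DESeq2.

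Pcp2, a gene of bipolar cells, was lower in S-opsin cones (-2.74 ± 0.30), but 313 of its 362 UMIs in M-opsin cones lay in the 36 cells rich in markers of other cells. Without such cells of either type its fold change was 0.20. Dlgap4, a postsynaptic scaffold (-1.90 ± 0.49), and Npc2, a lysosomal cholesterol carrier (-1.55 ± 0.37), rested on 8 and 16 UMIs in S-opsin cones. The remaining 4 genes called lower were Cxcl2, with 66 of its 67 UMIs in M-opsin cones at 2 weeks, Nccrp1, Mrpl2 and LOC100364435. The naming rule leaves them out, Cxcl2 and Nccrp1 because they were not lower in every library, and Mrpl2 and LOC100364435 as a ribosomal and an unnamed gene; they were chosen after their values were seen, to complete the count.

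Markers of other cell types in S-opsin cones differed by list and library. The endothelial list stood at 543 CPM at 2 weeks, with all 4 members above 0. In that library M-opsin cones had 147 CPM and non-photoreceptor cells 2594 CPM. The non-photoreceptor cells had been picked to hold at least 8 UMIs of the bipolar, Müller, amacrine, microglial or endothelial list. Their marker levels are thus raised by selection. Microglial markers summed to at most 1 UMI per library, and the bipolar list had 1, 26, 0 and 78 UMIs in control and at 2, 4 and 8 weeks (0 to 293 CPM, against 84.2 to 765 CPM in M-opsin cones). The Müller list summed to 94.7 to 779 CPM in S-opsin cones and 793 to 1063 CPM in M-opsin cones, with Aqp4 and Sox9 at 0 in all S-opsin sums. Crym, described above, belongs to that list. It held 26 of the list's 30 UMIs in control S-opsin cones and 161 of 184 at 8 weeks. At 2 and 4 weeks it held 19 of 109 and 2 of 4. The rod list was the most abundant, at 21542, 28046, 16129 and 17544 CPM in S-opsin cones, against 17269, 21955, 13408 and 19640 CPM in M-opsin cones, and Nrl, the factor that defines rods, had 0, 1, 0 and 4 UMIs in S-opsin cones. Rods of the same libraries had 41519, 70701, 50778 and 46203 CPM of the rod list. These rods had been picked to hold at least 4 UMIs of Nrl, Nr2e3, Gnat1, Pde6b and Cnga1 together. Those genes belong to the rod list, so its level in rods is high by selection. The part of rod RNA from other cells in these levels was not tested.

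The comparison of diabetic with control S-opsin cones rests on 1 library each, and the 3 comparisons share the control library of 12 cells and 43310 UMIs. Genes with at least 30 UMIs over a pair of libraries were used. At 2 weeks, 67 of 940 genes were at least 2-fold higher than in control (7.13%) and 25 at least 2-fold lower (2.66%). The counts at 4 weeks were 16 (3.95%) and 14 (3.46%) of 405 genes, and at 8 weeks 93 (6.13%) and 75 (4.94%) of 1517 genes. Median log2 ratios of all genes used were 0.05, -0.11 and -0.15 at 2, 4 and 8 weeks. Intervals for ratios are exact conditional binomial ones of 95% and cover counting error only.

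**Figure D5:**
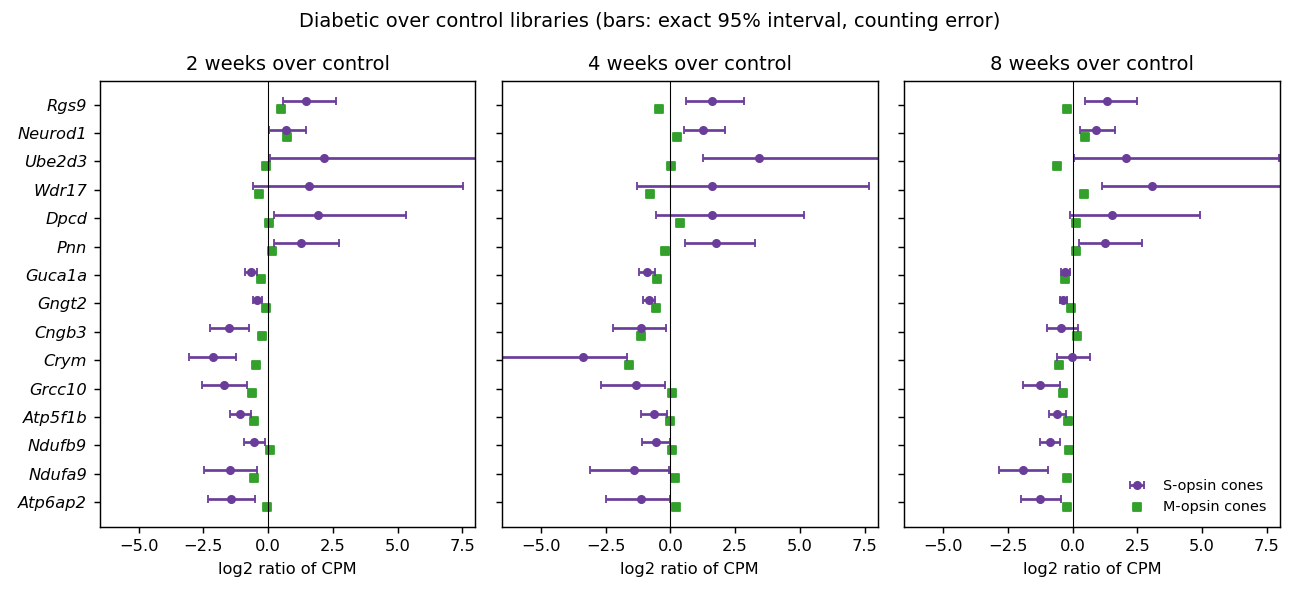
Log2 ratios of CPM at 2, 4 and 8 weeks over control for 15 of the genes named, in S-opsin cones (purple circles, with exact 95% intervals for counting error) and M-opsin cones (green squares); bars that leave the axis are cut. Rgs9 and Neurod1 lie right of 0 in S-opsin cones at all 3 times, and Guca1a, Gngt2, Grcc10, Atp5f1b and Ndufb9 lie left of it at all 3 times.

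Rgs9, Neurod1 and Guca1a each lay on 1 side of control at all 3 diabetic times. Rgs9, which shuts off transducin, had 231 CPM in control S-opsin cones (10 UMIs in 6 of 12 cells), 665 CPM at 2 weeks, 734 at 4 weeks and 604 at 8 weeks. Its log2 ratios to control were 1.46 (0.58 to 2.63), 1.62 (0.60 to 2.86) and 1.32 (0.47 to 2.48), against 0.51, -0.43 and -0.20 in M-opsin cones. Guca1a was lower at each time, at 6257 CPM in control, 3940 at 2 weeks, 3339 at 4 weeks and 5174 at 8 weeks, with log2 ratios of -0.67, -0.90 and -0.28, against -0.29, -0.51 and -0.31 in M-opsin cones. Neurod1, a basic helix-loop-helix factor of photoreceptors, had 485, 787, 1184 and 923 CPM in control and at 2, 4 and 8 weeks, with log2 ratios of 0.67, 1.27 and 0.90, against 0.73, 0.26 and 0.48 in M-opsin cones.

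Gngt2 and Cngb3 of the cone cascade were lower at all 3 times, but the interval of Cngb3 at 8 weeks included 0 (-0.99 to 0.21). Gngt2 had 10829, 8131, 6110 and 8483 CPM in control and at 2, 4 and 8 weeks, with log2 ratios of -0.41, -0.82 and -0.35 (M-opsin cones -0.08, -0.57 and -0.05). Cngb3 had 693, 243, 308 and 522 CPM (-1.51, -1.14 and -0.43, against -0.26, -1.14 and 0.16). Over the cascade genes used, medians were -0.14 at 2 weeks (9 genes, 5 below 0), -0.32 at 4 weeks (7 genes, 5 below 0) and -0.42 at 8 weeks (10 genes, 9 below 0). Of all genes used, 431 of 940, 236 of 405 and 916 of 1517 lay below 0 at those times. At least 2-fold higher and lower were 1 and 2 cascade genes at 2 weeks and 1 and 1 at 4 and at 8 weeks, beside 7.13 and 2.66%, 3.95 and 3.46%, and 6.13 and 4.94% of all genes. Their summed level was 34172 CPM in control, 29262 at 2 weeks, 25294 at 4 weeks and 27036 at 8 weeks, against 29897, 31184, 24006 and 28180 CPM in M-opsin cones.

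The genes of the rule also differed between times, which is a description. Pde6h in S-opsin cones had log2 ratios to control of -1.10 at 2 weeks, -0.67 at 4 weeks and 0.78 at 8 weeks, against 0.04, -0.09 and 1.04 in M-opsin cones. Arr3 had -1.12, -1.01 and 0.31, against -0.40, -0.95 and 0.04. Opn1sw had -0.14, -0.18 and -1.17. The share of S-opsin cones with Opn1mw, which went with Arr3 and Crym above, differed between the same libraries (50.0, 32.5, 45.5 and 85.3%); its part in these ratios was not tested. Crym stood at 600, 136, 47.4 and 604 CPM over all S-opsin cones and at 899.6, 209, 90.8 and 666 CPM over those with Opn1mw.

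Atp5f1b, Ndufb9, Ndufa9 and Cox7c, genes of energy metabolism, were lower at every time, while their list was near 0 at 2 weeks. Atp5f1b, the catalytic subunit of ATP synthase, had 2055, 980, 1326 and 1369 CPM in control and at 2, 4 and 8 weeks (log2 ratios -1.07, -0.63 and -0.59, against -0.53, -0.02 and -0.16 in M-opsin cones). Ndufb9, of respiratory complex I, had 1709, 1173, 1160 and 942 CPM (-0.55, -0.55 and -0.87, against 0.06, 0.08 and -0.14), and Ndufa9, of the same complex, had 393 CPM in control and at most 143 CPM at the diabetic times. Cox7c, of complex IV, had 3948, 3168, 2534 and 3028 CPM. The list of nuclear-encoded respiratory genes as a whole had medians of 0.01, -0.18 and -0.30 at 2, 4 and 8 weeks, beside 0.05, -0.11 and -0.15 over all genes. Below 0 lay 16 of 34 at 2 weeks, 21 of 32 at 4 weeks and 28 of 35 at 8 weeks. Beside them, 431 of 940, 236 of 405 and 916 of 1517 of all genes lay below 0. Of the list, 1, 0 and 1 genes were at least 2-fold lower, beside 2.66, 3.46 and 4.94% of all genes. Mitochondrially encoded genes, whose share the rule limits, summed to 136135, 117590, 108377 and 173362 CPM. Their ratios lay above 0 for 5 of 11 genes at 2 weeks, 0 of 10 at 4 weeks and 12 of 12 at 8 weeks, beside 509 of 940, 169 of 405 and 601 of 1517 of all genes.

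Further genes at the low end were Grcc10 (554, 172, 213 and 236 CPM in control and at 2, 4 and 8 weeks) and Atp6ap2, an accessory protein of the vacuolar proton pump (485, 179, 213 and 206 CPM). Sst had 854, 493, 237 and 604 CPM, but its 37 control UMIs came from 4 of 12 cells. Lgi1, Ing4, Tmem107 and Rhot1 were named at 8 weeks, with log2 ratios of -1.59 to -1.70 on 10 to 13 control UMIs each.

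At the high end, several genes rested on very few control UMIs. Ube2d3, a ubiquitin-conjugating enzyme, and Wdr17 had 1 UMI each in control, with log2 ratios at 8 weeks of 2.06 (0.06 to 7.97) and 3.07 (1.12 to 8.97). Cab39, a partner of the kinase LKB1, and Impg2, a proteoglycan of the matrix around photoreceptors, had none in control. At 8 weeks they had 46 and 41 UMIs (172.6 and 153.8 CPM). The 8-week sum alone brought them past the UMI limit for a pair, so the choice of genes favoured a rise. With 3 counts put for 0 in control, the ratios were 2.49-fold and 2.22-fold. These are not lower bounds, since the intervals of the log2 ratios began at 0.96 and 0.79. In M-opsin cones the log2 ratios of Cab39 and Impg2 at 8 weeks were 0.11 and 0.87. Pnn, a splicing-associated protein, had 162, 415, 568 and 409 CPM in control and at 2, 4 and 8 weeks. Dpcd, Fabp12 and Tuba4a had 2 control UMIs each, and S100a6 and Ptn at 2 weeks came from 1 cell each.

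Rod genes were mostly higher at 2 weeks. Of 9 rod phototransduction genes used, 6 were at least 2-fold higher (7.13% of all genes were). Their median log2 ratio was 1.72, against 0.74 in M-opsin cones of the same libraries. Summed over the whole list, the level rose less, from 22674 CPM in control to 30020 CPM at 2 weeks, against 18590 and 23390 CPM in M-opsin cones. Sag, of the rod marker list, was lower at 2 weeks in S-opsin cones (log2 ratio -0.41). The rod marker list was also higher at 2 weeks in other cells, at 10565 CPM against 3145 CPM in control in non-photoreceptor cells, and at 70701 CPM against 41519 CPM in control in rods. Its part in the S-opsin values was not tested. At 4 and 8 weeks the list's medians were 0.31 and 0.27. Doublet scores picked out 17 of the 40 S-opsin cones at 2 weeks, against 1 of 12 in control, 3 of 11 at 4 weeks and 10 of 68 at 8 weeks. In M-opsin cones they picked out 19 of 113 in control and 15 of 124, 5 of 41 and 13 of 97 at 2, 4 and 8 weeks. The number removed was set by library size. Of all barcodes within the limits it was 654 of 9044 in control. At 2, 4 and 8 weeks it was 1921 of 15496, 783 of 9895 and 364 of 6749. Without the S-opsin cones so picked, the summed rod level at 2 weeks was 28604 CPM, against 30020 CPM with them.

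Thrb, lower in S-opsin cones than in M-opsin cones above, had a log2 ratio to control of 1.98 (0.37 to 5.36) in S-opsin cones at 8 weeks on 2 control UMIs, against -0.32 in M-opsin cones. Ccdc136 had log2 ratios to control of -0.07, 0.67 and -0.39 in S-opsin cones at 2, 4 and 8 weeks.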

How the data were processed

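The deposited matrices hold raw UMI counts per gene and barcode for 25399 genes, and per the submitters' processing notes they were made with Cell Ranger 3.0.1 against Rnor_6.0. Which gene annotation was counted is not given in the sources used here. The submitters' matrix of control replicate 1 was not analysed here. All other steps were computed here. The rule was applied to every barcode (lowest depth 500 UMIs), counts were summed per library and cone type, and CPM are those sums scaled to the total UMIs of the sum. Time ratios had 0.5 counts added.

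The members, gene lists, named genes and tests were chosen with earlier results of these data known. S-opsin over M-opsin cones was tested with edgeR 4.0.16 (R 4.3.3; TMM, quasi-likelihood, robust, library block, at least 30 UMIs over the 8 sums, the 6 genes of the rule left out) and Benjamini-Hochberg adjustment; the scripts were tested on simulated data. The block is sound because both cone types of a library come from the same specimen. Named genes were the 6 of the rule and up to 12 per direction with the largest fold among those passing the same way in every library, filled up to 8 by smallest p and then given as not passing. Between times they were the 5 highest and 5 lowest ratios per time whose interval excluded 0 and whose CPM was at least that of all barcodes, the 6 most extreme over all 3 times in each direction, and up to 4 members of a list. Genes without a proper symbol, and those of ribosomes or mitochondria, were left out of this ranking. Doublets were kept in the main results, and removed as an alternative (the top 0.8% per 1000 barcodes by Scrublet score, scanpy 1.11.5). Other alternatives were DESeq2 1.42.0 and the filters in the closing section. Depth and counting error are given by exact intervals (scipy 1.17.1), which leave out differences between animals. Results for some genes are not reported here.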

Additional observations from a re-analysis of the deposited data

How the results depend on the processing

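Of the S-opsin over M-opsin counts of 3 higher and 14 lower genes, DESeq2 gave 1 and 1, a minimum of 100 UMIs gave 4 lower, strict opsin dominance 7 lower, removal of doublets 1 higher, S-opsin cones without Opn1mw 25 lower, and leaving out cells rich in other markers 4 lower. Leaving out 1 library gave 1 to 6 higher and 4 to 18 lower. The fit without the library block gave 1 higher and 0 lower, with 183 genes at an unadjusted p below 0.05, against 286 with the block. The fold of Cldn5 was -5.63 and that of Pltp -1.57 without doublets, that of Sst was -0.47 against S-opsin cones without Opn1mw, and that of Pcp2 was 0.20 without cells rich in other markers. The S-opsin share was 17.9, 51.5, 62.5 and 54.5% (control, 2, 4 and 8 weeks) after thinning, 46.2% at 2 weeks and 40.0% at 4 weeks under strict dominance, and at 2 weeks 17.4% without doublets and 14.6% of cones with at least 10 cone-gene UMIs. Genes at least 2-fold higher and lower over control numbered 380 and 232, 130 and 108, and 543 and 484 at 2, 4 and 8 weeks with a minimum of 10 UMIs, and 9 and 3, 0 and 3, and 4 and 6 with 100. Without doublets they were 25 and 13 at 2 weeks and 9 higher at 4 weeks, under strict dominance 9 higher at 4 weeks and 31 and 40 at 8 weeks, and with at most 20% mitochondrial UMIs 47 lower at 8 weeks. The rod list summed to 21028, 28604 and 15776 CPM (control, 2 and 4 weeks) without doublets and 17310 CPM at 8 weeks under strict dominance. The mitochondrially encoded list summed to 112013, 112192 and 134001 CPM (control, 2 and 8 weeks) with at most 20% mitochondrial UMIs, 152175, 114237 and 114588 CPM (control, 2 and 4 weeks) under strict dominance, and 121983, 128234, 120346 and 161188 CPM without doublets. The cause of these shifts was not tested. For the comparisons between times, no paired analysis was possible because each time has 1 library. Depth is also low there, with 43310 UMIs in 12 S-opsin cones in control and 42223 UMIs in 11 at 4 weeks.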
